A study of Mus musculus with 106 samples.

Results

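The quadriceps, a fast-twitch thigh muscle, was profiled by bulk RNA sequencing of male wild type C57BL/6J mice kept at 10 °C or at 22 °C (room temperature), and the comparison asked which of its genes differ between these temperatures. The 10 °C mice were 8 weeks old at the start, were taken through steps of 18 °C and 14 °C, 5 days each, before 2 weeks at 10 °C, while their controls stayed at 22 °C for the same time, and the labels give an age of 12 weeks for the quadriceps libraries. All mice were housed 2 per cage, and each library pools the muscle of 2 mice, so that 6 mice per temperature gave 3 libraries. The 6 libraries are those the count table names as the cold quadriceps and its own controls, 6 of the 106 in the series, and all 23393 genes listed were examined, of which 11841 were high enough to test. A second set of 3 room temperature quadriceps libraries, the controls of mice kept at 34 °C for 4 weeks, took no part in the main test. Per the methods of the paper the cold mice and their controls came from Janvier. The 34 °C mice and their controls came from Charles River. Settings that use the second set of controls thus change supplier and experiment together, and these cannot be told apart. Neither set carries a drug or a gene deletion, and a pooled, whole piece of muscle holds vessels, nerve, connective tissue and any fat collected with it.

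Skeletal muscle makes heat in the cold by shivering and by calcium cycling at the sarcoplasmic reticulum, where the pump SERCA1 (Atp2a1) can be uncoupled by the small protein sarcolipin (Sln). Brown adipocytes and the beige adipocytes that appear in white fat make heat by another route, the proton leak of uncoupling protein 1 (UCP1) in their mitochondria, and they refill their lipid by making fatty acids from glucose during sustained cold. Adipocytes lie between muscle bundles and on the muscle surface, so a fat gene in a muscle library may come from a small number of such cells.

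Library totals ran from 50677034 to 58290770 counts, and every value below is in CPM, the count divided by the library total in units of 1e+06, scaled with edgeR's TMM factors unless another scale is named. The tissue label held: the fast myosin Myh4 was at 50929 CPM or more and the skeletal actin Acta1 at 24959 CPM or more in every library. The 10 most abundant genes took 23.5% to 33.4% of the counts. The 22 °C library 1 stood apart, with a Pearson correlation of log2 CPM of 0.968 and 0.952 with the other 22 °C libraries, which correlated with each other at 0.991. It also held 27 tested genes at over 90% of their summed CPM, mostly pancreatic digestive enzymes such as Ctrb1, Pnlip and Cpa1, which together came to 3759 CPM there and to at most 20 CPM in any other library. The 10 °C library 1 held 21 such genes, among them the epididymal genes Crisp1 and Adam7, at 427 CPM in sum, and the 10 °C library 2 held 3, the neutrophil gene Ngp and the sperm genes Prm1 and Tnp2. These 51 genes were picked after their values were seen, and 42 of them passed the call below. Among the 42 are all 27 of the 22 °C library 1, each called lower. Without the 51 genes 412 of the 454 called genes remained, 351 higher and 61 lower. In the fat class 174 of 176 remained, all of them higher, and in the muscle class all 29. The scaling matters as well: the median log2 fold change of all tested genes was 0.025 with TMM, 0.25 with library size only and 0.23 with TMM factors taken from muscle genes.

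Cold quadriceps had more genes higher than lower, except when the level of adipocyte markers was fitted as a covariate, where 132 were higher and 175 lower. A two-sided quasi-likelihood F-test of edgeR was used, and a gene was called at a fold above 1.5 with an unadjusted p no higher than 0.05. By this rule 366 genes were higher at 10 °C, 3.09% of those tested, and 88 were lower, 0.743%, together 454 genes or 3.83%. Of the 88, 27 are the genes held by the 22 °C library 1. Only 3 genes had a Benjamini-Hochberg adjusted p under 0.05 in this test, Ppp1r3b, G0s2 and Ucp1, all higher at 10 °C, against 134 in edgeR's exact test and 196 in DESeq2. The libraries of the groups did not overlap for 10.2% of tested genes with the cold libraries above and for 8.90% with the cold libraries below. Leaving out the 10 °C library 3 raised the called genes from 454 to 985, and leaving out both libraries that hold genes of other organs in number, 22 °C library 1 and 10 °C library 1, lowered them to 264. Of the 985, 846 were higher and 139 lower, among 11880 genes tested. Counts given below for a gene list under 1 setting are to be read beside the calls over all genes in that setting.

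Each gene was then placed by where it is expressed without cold. Its CPM in interscapular brown fat (iBAT) at 22 °C was divided by its CPM in the 3 quadriceps controls outside the test. This iBAT came from the same experiment and supplier as those controls, and the labels give it an age of 12 weeks. It is another set than the iBAT of the cold experiment, aged 11 weeks, which is used further below. The ratio put 471 tested genes in a fat class (8 or more) and 701 in a muscle class (8 times lower in fat). The other 10669 lay between them. In the fat class 175 genes were higher at 10 °C (37.2%) and 1 was lower (0.212%), with a median log2 fold change of 0.53. The shared genes had 188 higher (1.76%), 61 lower (0.572%) and a median of 0.02. Most of the 27 lower calls held by the 22 °C library 1 are among these 61. The 1 lower gene of the fat class is also held by that library. The muscle class had 3 higher (0.428%), 26 lower (3.71%) and a median of -0.17, a median that turned to 0.05 with library size only and to 0.02 with TMM factors from muscle genes. The fat class summed to 8769 to 9889 CPM at 22 °C and to 11183 to 18049 CPM at 10 °C, so its cold libraries all lay above its controls. The muscle class summed to 507396 to 665911 CPM at 22 °C and to 362329 to 529959 CPM at 10 °C, and these ranges overlap. In such bulk libraries fewer cells of a type and less RNA per cell cannot be told apart. Of the 188 shared genes called higher, 81 had a ratio of brown fat to muscle above 2 (43.1%), against 3189 of the 10669 shared genes tested (29.9%).

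**Figure D1:**
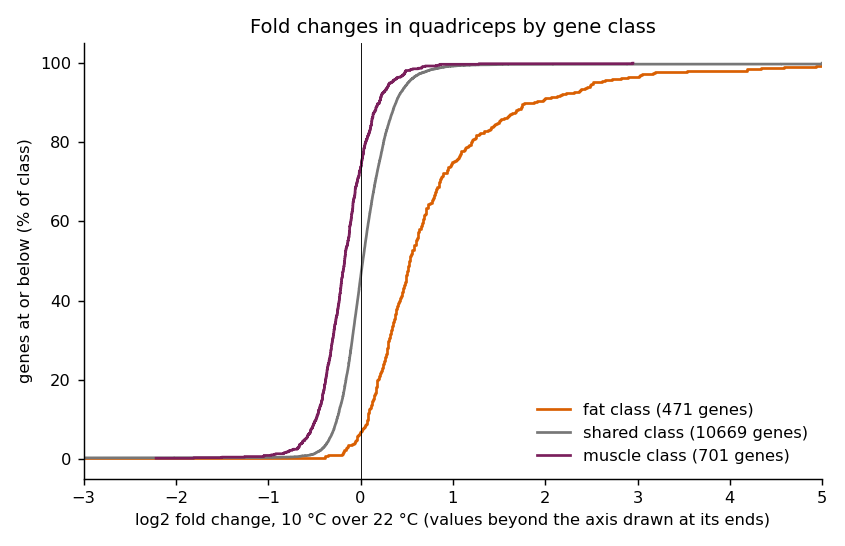
Cumulative share of tested genes (vertical axis, % of each class) at or below a given log2 fold change of 10 °C over 22 °C (horizontal axis) for the fat, shared and muscle classes, with values beyond the axis drawn at its ends. The fat class lies to the right, with a median of 0.53, and the muscle class slightly to the left, with a median of -0.17 under TMM that was above 0 with library size only.

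General adipocyte genes were higher in 2 of the cold libraries and close to the controls in library 3. Adiponectin (Adipoq), a hormone made by adipocytes, was at 29.4, 34.9 and 19.1 CPM in the 22 °C libraries 1 to 3 and at 64.8, 84.5 and 24.4 CPM in the 10 °C libraries 1 to 3. The first 2 cold libraries thus lay above all controls and library 3 lay inside the control range. The fitted log2 fold change was 1.06 ± 0.42 (SE, n = 3 per group, edgeR's quasi-likelihood test, adjusted p = 0.452). Perilipin 1 (Plin1), the coat protein of the adipocyte lipid droplet, was at 12.1, 15.7 and 11.0 CPM at 22 °C and at 38.5, 49.2 and 14.6 CPM at 10 °C, and its log2 fold change was 1.40 ± 0.40. The fatty acid binding protein Fabp4 was at 141, 211 and 143 CPM at 22 °C and at 521, 566 and 205 CPM at 10 °C, again with cold library 3 among the controls. Of 20 general adipocyte genes tested, 12 were higher, 0 lower, and the median log2 fold change was 1.05, beside 0.025 for all tested genes. The called members included Pparg, the master transcription factor of adipocytes, at 1.41 ± 0.28, the droplet protein Cidec at 1.25 ± 0.42 and the hormone-sensitive lipase Lipe at 0.68 ± 0.28. Pparg was called under all 17 alternative settings of test, scaling, filter, library and control, Plin1 and Fabp4 under 14, Cidec under 12, and Adipoq and Lipe under 8, with Lipe lost in 5 of the 6 fits that left out 1 library. Leptin (Lep), the hormone of white fat, was not called, with a log2 difference of 0.70 ± 0.67. With the controls of the 34 °C experiment in place of their own, only 2 of the 20 were higher and 1 was lower, and without the 10 °C library 1 or 2 there were 7 and 6 higher.

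The 10 °C library 3 was the nearest to the controls over the fat class as a whole, though not for each gene. Over the 175 fat-class genes called higher, the median log2 distance from the 22 °C mean was 0.47 in 10 °C library 3 and 1.53 in libraries 1 and 2 together, and library 3 lay outside the control range for 121 of the 175. The summed level of Adipoq, Plin1 and Cidec, which are used below as adipocyte markers, was 68.7, 82.5 and 45 CPM at 22 °C and 180.4, 206 and 65.9 CPM at 10 °C. In library 3 this sum lay inside the control range.

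Ucp1, Cidea, Elovl3 and Kcnk3, genes of brown and beige adipocytes, stood further apart than the general adipocyte genes. Ucp1, at chr8:83290348-83298456 (GRCm38), was at 0.0475, 0.0577 and 0.394 CPM in the 22 °C libraries, which are 2, 3 and 21 counts, and at 120.2, 95 and 27.5 CPM at 10 °C. Every cold library, library 3 included, was far above every control. The log2 fold change was 8.84 ± 0.85 (SE, edgeR's quasi-likelihood test, adjusted p = 0.0343), and it rests on few control counts. Cidea, a droplet-fusion protein of thermogenic adipocytes, was at 1.64, 1.94 and 1.65 CPM at 22 °C and at 47.0, 36 and 12.1 CPM at 10 °C, with a log2 fold change of 4.18 ± 0.49. Elovl3, a cold-induced elongase of brown fat, had 4, 0 and 1 counts at 22 °C, where 3 counts would be 0.0583 CPM in the library at 0, and was at 13.8, 6.42 and 3.28 CPM at 10 °C. The potassium channel Kcnk3 was at 0.927, 1.29 and 0.507 CPM at 22 °C and at 9.34, 7.84 and 3.08 CPM at 10 °C, with no overlap between the groups. Of 18 brown adipocyte genes, 12 passed the filter on low values and 8 of these were higher, with none lower and a median log2 fold change of 2.22. That filter averages over both groups. Ucp1 passed it through its cold libraries, and genes low in both groups were left out. The 8 of 12 and the median therefore favour genes that are high in the cold. They are not a like measure to the general adipocyte list, where all 20 genes were tested.

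Of the 12 brown adipocyte genes tested, 4 did not pass: Prdm16, Ebf2, Dio2 and Pank1. Prdm16 and Ebf2, transcription factors of that lineage, had log2 differences of 0.38 ± 0.18 and 0.39 ± 0.31. The deiodinase Dio2, which activates thyroid hormone, had 0.79 ± 0.36, and the coenzyme A synthesis kinase Pank1 had 0.32 ± 0.17. Zic1, which is expressed in classical brown fat, was at 0.212 to 0.620 CPM at 22 °C and at 0.273 to 0.833 CPM at 10 °C, too low to test, and the groups overlap. Summed over the whole list, the level was 49.4 to 52.3 CPM at 22 °C and 109 to 319 CPM at 10 °C (exact permutation test, two-sided, p = 0.1, the smallest that 3 against 3 libraries allow).

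**Figure D2:**
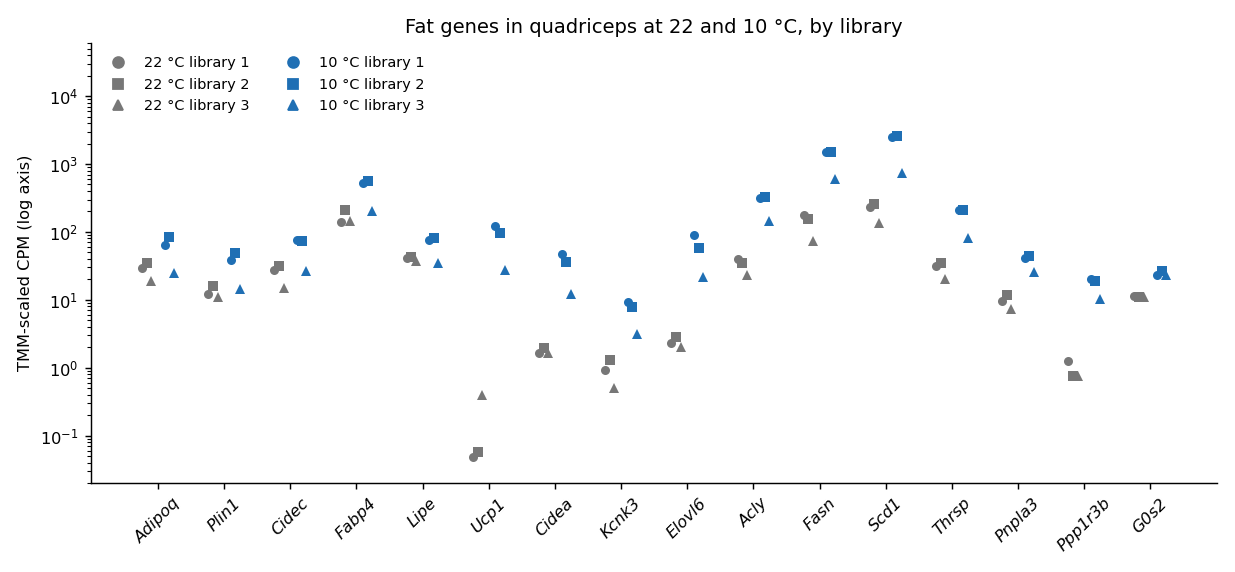
TMM-scaled CPM (log axis) of 16 fat genes in each 22 °C library (grey) and each 10 °C library (blue). Cold library 3 (its own marker shape) sits among the controls for Adipoq, where it is at 24.4 CPM, and above all controls for Ucp1, where it is at 27.5 CPM.

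Genes of fatty acid synthesis were higher in the cold muscle: of 22 genes of the route from citrate to unsaturated fatty acids, 15 were higher and none lower, with a median log2 fold change of 1.24. With adipocyte markers as a covariate 11 stayed higher and the median was 0.59. Their summed level was 1471 to 1853 CPM at 22 °C and 3100 to 6657 CPM at 10 °C, without overlap. The sequences are the 250 bases before a transcription start of Elovl6, Fasn, Acly and Thrsp, the 4 with the largest fold changes among the 13 called members matched in the RefSeq table used (GRCm38.p6), where Scd1 and Scd2 were not matched. They are Elovl6 (chr3:129532136-129532385, plus strand), Fasn (chr11:120824548-120824797, minus strand), Acly (chr11:100528001-100528250, minus strand) and Thrsp (chr7:97417551-97417800, minus strand), shown 5′ to 3′ because their genes moved together. Capitals mark CCAAT, the box bound by NF-Y, and GGGCGG, the GC box bound by SP1, on either strand.
Elovl6: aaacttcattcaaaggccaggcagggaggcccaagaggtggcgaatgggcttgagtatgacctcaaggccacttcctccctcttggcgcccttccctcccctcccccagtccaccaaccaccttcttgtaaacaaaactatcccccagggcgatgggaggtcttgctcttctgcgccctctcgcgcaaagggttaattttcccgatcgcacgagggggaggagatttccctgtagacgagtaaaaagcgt
Fasn: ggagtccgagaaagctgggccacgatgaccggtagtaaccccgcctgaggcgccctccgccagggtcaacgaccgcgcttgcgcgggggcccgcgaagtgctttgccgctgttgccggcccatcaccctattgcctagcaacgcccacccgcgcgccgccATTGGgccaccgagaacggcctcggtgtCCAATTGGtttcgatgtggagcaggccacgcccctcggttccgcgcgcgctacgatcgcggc
Acly: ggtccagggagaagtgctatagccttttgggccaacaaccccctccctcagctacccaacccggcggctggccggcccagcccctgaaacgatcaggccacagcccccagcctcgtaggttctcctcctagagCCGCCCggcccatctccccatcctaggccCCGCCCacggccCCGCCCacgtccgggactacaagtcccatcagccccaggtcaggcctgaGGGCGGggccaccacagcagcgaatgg
Thrsp: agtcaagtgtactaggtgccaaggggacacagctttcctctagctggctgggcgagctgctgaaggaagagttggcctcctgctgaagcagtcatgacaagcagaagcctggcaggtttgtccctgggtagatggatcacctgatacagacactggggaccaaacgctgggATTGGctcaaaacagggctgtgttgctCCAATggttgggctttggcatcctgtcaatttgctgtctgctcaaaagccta
The Fasn window holds 3 matches to CCAAT, 2 of them overlapping, the Thrsp window 2, the Acly window 4 matches to GGGCGG, and the Elovl6 window neither. The Fasn window lies inside the annotated span of its gene, chr11:120805958-120825166, so it does not precede the outermost start. CCAAT was found in 33.8% and GGGCGG in 32.7% of all 32851 RefSeq windows of this length. Among the 13 called members with a window, 6 held CCAAT, 7 held GGGCGG, 2 held the E-box CACGTG (6.02% of all windows) and 0 held TCACCCCAC, the sterol response element (0.496% of all windows). A member was counted if any of its windows held the motif, while the shares are per window. The counts and the shares are thus not like measures, and no enrichment was tested.

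Of the 22 genes 7 did not pass, among them Acacb and Me1. ATP-citrate lyase (Acly), which splits citrate into acetyl-CoA, was at 39.8, 34.7 and 23.2 CPM at 22 °C and at 321, 331 and 143 CPM at 10 °C. Its log2 fold change was 3.02 ± 0.36 (edgeR's quasi-likelihood test, adjusted p = 0.056), and all cold libraries lay above all controls. The citrate carrier Slc25a1 rose by 2.49 ± 0.48 on the log2 scale. Acetyl-CoA carboxylase 1 (Acaca), the committed step, was at 40.0, 35.7 and 26.3 CPM at 22 °C and at 231, 214 and 84.7 CPM at 10 °C. Its partner isoform Acacb, the carboxylase that restrains fatty acid oxidation in muscle, was not called, at 483 to 599 CPM and at 472 to 537 CPM. Fatty acid synthase (Fasn) was at 175, 154 and 74.0 CPM at 22 °C and at 1500.0, 1518 and 609.6 CPM at 10 °C, and the lowest cold library was above the highest control. Its mean went from 134 ± 53.4 CPM to 1209 ± 519 CPM (SD, n = 3), a fitted 9.0-fold rise.

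Elongation and desaturation rose as well. Elovl6, which extends palmitate, was at 2.28, 2.81 and 2.03 CPM at 22 °C and at 89.8, 58.9 and 22 CPM at 10 °C, the largest log2 fold change of the list at 4.58 ± 0.51. The delta-9 desaturase Scd1 was at 233, 255 and 134 CPM at 22 °C and at 2469, 2629 and 746 CPM at 10 °C, a 9.39-fold rise. Its neighbour Scd2 rose by only 0.83 ± 0.25 and the desaturase Fads2 by 0.89 ± 0.27 on the log2 scale. Thrsp (Spot 14), a nuclear protein that goes with lipogenesis, was at 31.8, 35.1 and 20.1 CPM and at 209, 210.5 and 80.2 CPM, with no overlap. The NADPH-making enzymes of the pentose phosphate route followed, with G6pdx at 1.58 ± 0.35 and Pgd at 1.41 ± 0.26. Malic enzyme Me1, another source of NADPH, was not called, at 258, 341 and 328 CPM at 22 °C and 401, 333 and 347 CPM at 10 °C.

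The transcription factors that drive lipogenesis were not called. Srebf1, the sterol-sensing factor of fatty acid synthesis, was at 103, 109 and 90.6 CPM at 22 °C and at 80.8, 85.1 and 84.7 CPM at 10 °C, with all cold libraries below the controls. Its log2 difference of -0.27 ± 0.11 had an unadjusted p of 0.0342 in edgeR's quasi-likelihood test (adjusted p = 0.439) but missed the fold limit. ChREBP (Mlxipl), the glucose-sensing factor, overlapped between the groups, with a difference of 0.09 ± 0.10. Of 10 control genes, 2 were higher: Insig1, which holds SREBP in the endoplasmic reticulum and is itself an SREBP target, rose by 1.34 ± 0.20, and Pnpla3, a lipogenic lipase of the droplet, by 1.98 ± 0.25. Cholesterol synthesis moved less. Of its 21 tested genes 8 were higher, with a median of 0.37, led by squalene epoxidase (Sqle) at 1.70 ± 0.35 and by Acat2 at 1.68 ± 0.34, and with adipocyte markers as a covariate 2 stayed higher with a median of 0.17.

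The smallest adjusted p values belonged to Ppp1r3b and G0s2, genes of glycogen and fat storage, with Ucp1 next. All of them are in the fat class, with a ratio of brown fat to muscle of 159 for Ppp1r3b and 18.3 for G0s2. At 10 °C Ppp1r3b was also called higher in ingSAT, by 3.78 ± 0.43 on the log2 scale, and in iBAT, by 1.73 ± 0.19. Ppp1r3b, at chr8:35375694-35388139, targets protein phosphatase 1 to glycogen, and was at 1.26, 0.750 and 0.751 CPM at 22 °C and at 20.4, 19.2 and 10.4 CPM at 10 °C. The log2 fold change was 4.19 ± 0.34 (edgeR's quasi-likelihood test, adjusted p = 0.0278). Among the 15 genes of the glycogen list it was the only one called. The muscle form Ppp1r3a was at 148 to 327 CPM at 22 °C and at 293 to 329 CPM at 10 °C. Gys2, the glycogen synthase of liver and fat, is not on the glycogen list and was named for the size of its change. It too was called higher, with a log2 fold change of 3.53 ± 0.50, under all 17 settings. Its level was 0.285, 0.327 and 0.300 CPM at 22 °C and 4.65, 4.58 and 1.44 CPM at 10 °C. The muscle synthase Gys1 was at 601 to 840 CPM and at 558 to 684 CPM and was not called.

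G0s2, an inhibitor of the triglyceride lipase ATGL and located at chr1:193272160-193273188, was at 11.6, 10.8 and 11.1 CPM at 22 °C and at 23.3, 26.4 and 23.5 CPM at 10 °C. Here cold library 3 was as high as the others, and the log2 fold change of 1.13 ± 0.10 (edgeR's quasi-likelihood test, adjusted p = 0.0339) stayed between 1.08 and 1.19 when any 1 library was left out. In the fat depots at 10 °C G0s2 was called higher in ingSAT, at 0.85 ± 0.24, and lower in iBAT, at -0.78 ± 0.24. ATGL itself (Pnpla2) was not called in quadriceps, at 240 to 356 CPM and at 298 to 357 CPM. In triglyceride synthesis 3 of 9 tested genes were higher, Agpat2 at 2.65 ± 0.36, Dgat2 at 0.82 ± 0.20 and Dgat1 at 0.60 ± 0.21. The Dgat1 call held under 8 of 17 settings, and 1 gene of this list was called with the adipocyte covariate or with the controls of the 34 °C experiment. Of 14 genes of lipolysis and lipid droplets 7 were higher and none lower, with 4 higher without the 10 °C library 1 or 2 and 2 with the adipocyte covariate. Plin5, the droplet coat of oxidative muscle, was not called and had a log2 difference of -0.01 ± 0.19.

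Selected fat genes, most of them already known to be higher at 10 °C, were also set against the summed adipocyte markers Adipoq, Plin1 and Cidec in their own library. Ucp1 was at log2 ratios of -10.5, -10.5 and -6.83 at 22 °C and of -0.586, -1.12 and -1.26 at 10 °C, so that the cold library with few adipocyte markers was close to the other cold libraries on this scale. The difference of the means was 8.28. For Fasn the ratios were 1.35, 0.897 and 0.717 at 22 °C and 3.06, 2.88 and 3.21 at 10 °C, a difference of 2.06. Elovl6 differed by 3.29, Cidea by 2.89, Scd1 by 1.99, Acly by 1.87, Thrsp by 1.34, Acaca by 1.18 and Pnpla3 by 0.88. For each of these 9 genes the groups did not overlap, and each had the smallest p the exact permutation test allows with 3 against 3 libraries, 0.1. General adipocyte genes gave smaller differences: 0.19 for Fabp4 (exact permutation test, p = 0.5), 0.30 for Pparg (p = 0.6) and 0.39 for the adrenergic receptor Adrb3 (p = 0.3). Lep had -0.36, Lipe -0.50, Me1 -0.86 and Acss2, a called enzyme that makes acetyl-CoA from acetate, -0.46, with p between 0.2 and 0.6 in the same exact test. Per marker at 22 °C, Me1 was at 1.91 to 2.86 in quadriceps and at -5.08 to -3.56 in inguinal subcutaneous fat. Acss2 was at -0.783 to 0.0444 and at -5.77 to -3.71. Both were thus far higher per marker in quadriceps, and how much of their RNA came from muscle was not tested.

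**Figure D3:**
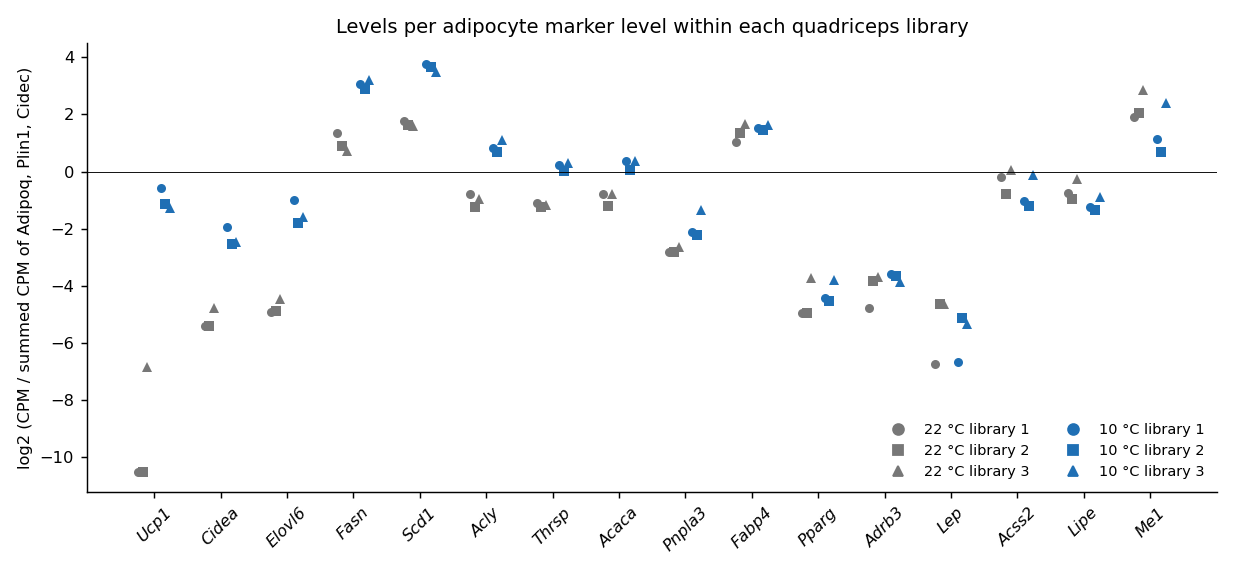
log2 ratio of each gene's CPM to the summed CPM of Adipoq, Plin1 and Cidec (vertical axis) in each 22 °C library (grey) and each 10 °C library (blue). The groups are apart for Ucp1 through Pnpla3, with Ucp1 between -1.26 and -0.586 in the cold, and overlap for Fabp4, Pparg, Lep and Me1.

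The fat depots of the cold experiment, whose libraries the labels put at an age of 11 weeks, were set beside these ratios. In inguinal subcutaneous fat (ingSAT) the Ucp1 ratio to the same markers was -11.7 to -8.85 at 22 °C and -2.72 to -1.66 at 10 °C. In iBAT it was 0.16 to 0.81 at 22 °C and 1.58 to 1.86 at 10 °C. The quadriceps ratios at 10 °C, -1.26 to -0.586, lay between the 2 cold fat depots. These tissues were sequenced and counted in another table, so the ratios were set within each library and no test was made across tables. In the depots' own tests fatty acid synthesis had 13 genes higher and 1 lower of 22 in ingSAT, where 7.24% of tested genes were higher and 9.21% lower, and 16 higher of 22 in iBAT, where 5.99% were. The respiratory chain differed in another way: 69 of 78 genes were higher in ingSAT, 2 in iBAT and 1 of 77 in quadriceps.

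Among muscle-class genes Nmrk2 had the largest fall. This gene, at chr10:81198170-81202265, encodes the muscle nicotinamide riboside kinase, an enzyme of NAD synthesis. It was at 296, 184 and 272 CPM at 22 °C and at 70.3, 57.4 and 34.5 CPM at 10 °C, and the highest cold library was below the lowest control. Its log2 fold change was -2.21 ± 0.29 (edgeR's quasi-likelihood test, adjusted p = 0.0774), and it was called under all 17 settings. Chac1, a glutathione-degrading enzyme induced by amino acid stress, was at 119, 91.0 and 82.4 CPM and at 36.3, 34.9 and 12.5 CPM, again apart and again called under all 17 settings. The atrial and muscle kinase gene Sbk2 had -1.25 ± 0.32 and was likewise called in all of them.

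Further muscle-class genes were called lower, with smaller folds, and several of these calls rest on the scaling. Telethonin (Tcap), a cap of titin at the Z-disc, was at 1984, 2034 and 2175 CPM at 22 °C and at 1222, 1231 and 1397 CPM at 10 °C, a fold that was not called with library size only or with TMM factors from muscle genes. The intermediate filament desmin (Des) had -0.68 ± 0.27 and the calcium channel subunit Cacng1 -0.66 ± 0.16, and both calls were lost under the same scalings, Des holding under 8 and Cacng1 under 10 of 17 settings. The LIM protein Fhl3 had -0.79 ± 0.22 and the transcriptional coactivator Cited4 -0.83 ± 0.21, and both calls were lost with library size only and without the 22 °C library 1. Etv4 and Six2, transcription factors of development, had -1.05 ± 0.29 and -1.05 ± 0.45, and the second of these calls held under 8 of 17 settings. In the other direction, Mettl21e, a methyltransferase of muscle, was at 2.73, 2.40 and 2.37 CPM at 22 °C and at 4.60, 4.30 and 4.34 CPM at 10 °C, without overlap.

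The contractile apparatus had no called gene in either fibre type. All 15 fast fibre genes had a negative log2 difference, with a median of -0.39 under TMM and of -0.15 with library size only, which lies below the all-gene median of 0.25 on that scale. None of the 15 passed edgeR's quasi-likelihood test at an unadjusted p of 0.05, while DESeq2 called 2 lower. For 7 of the 15 all cold libraries lay below all controls under TMM, and for 0 above, where 8.90% of all tested genes lay below. The fast myosin Myh4 was at 93666, 78446 and 81031 CPM at 22 °C and at 65366, 50929 and 94606 CPM at 10 °C, so that cold library 3 was the highest of all. Myh1 was at 13111 CPM in the 22 °C library 1 and at 4652 to 7614 CPM in the other 5 libraries. The slow fibre genes had a median of -0.07 under TMM that was 0.20 with library size only, and slow myosin Myh7 was at 329.8 to 561 CPM and at 343 to 460.1 CPM. Of 18 sarcomere frame genes 2 were lower under TMM, Tcap and Des, and 4 without the 10 °C library 3, but none with library size only, where the median was 0.02. Without the 22 °C library 1 or the 10 °C library 1 or 2 there was 1. Over all genes, lower calls went from 88 to 139 without the 10 °C library 3 and to 41 with library size only. The giant protein titin (Ttn) was at 14741 to 18014 CPM and at 9115 to 17409 CPM and was not called.

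No gene of calcium handling was called higher. SERCA1 (Atp2a1) was at 63319, 45231 and 51739 CPM at 22 °C and at 36960.0, 28951 and 49860.0 CPM at 10 °C, with overlapping groups. Sarcolipin (Sln) was low, with 49 to 149 counts per library, at 1.19, 1.56 and 2.80 CPM and at 1.76, 2.24 and 0.868 CPM, with a log2 difference of -0.19 ± 0.44. The release channel Ryr1 was at 6423 to 7382 CPM and at 3729 to 6355 CPM, without overlap, and its log2 difference of -0.51 ± 0.25 did not pass the test. Of 16 tested calcium handling genes 1 was lower under TMM, Cacng1, but 5 were without the 10 °C library 3, 2 without the 22 °C library 2 or 3, and 0 without the 22 °C library 1. Over all genes 88 were lower in the main test and 139, 140, 126 and 63 in these settings, in the same order.

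**Figure D4:**
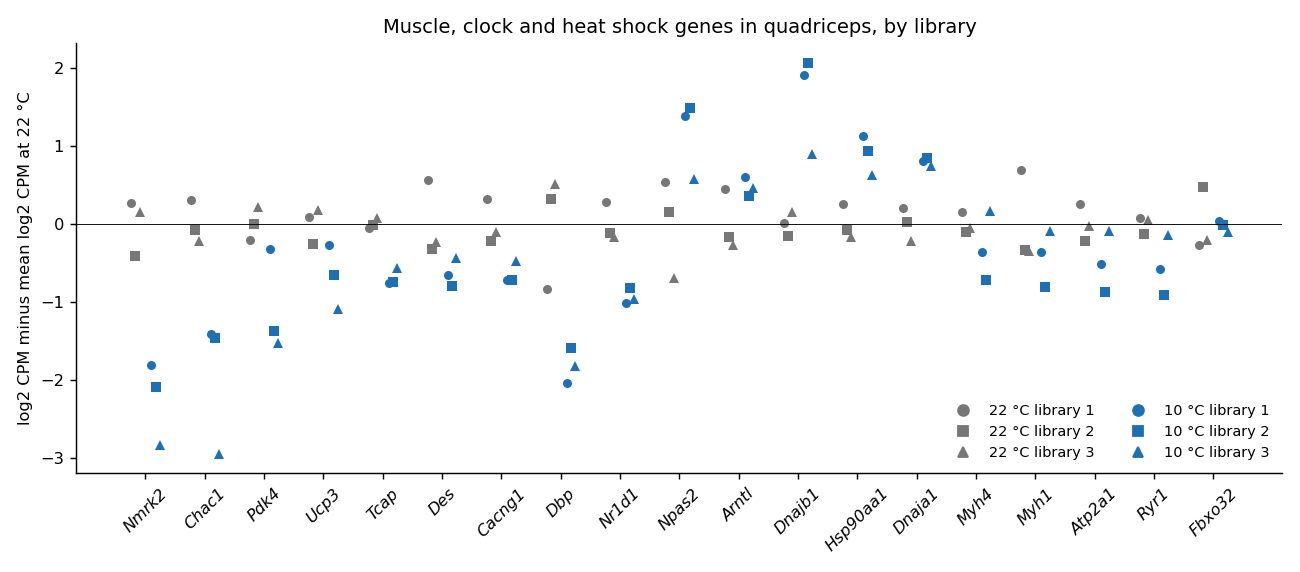
log2 CPM (TMM) of 19 muscle, clock and heat shock genes relative to the mean of the 22 °C libraries (vertical axis) in each 22 °C library (grey) and each 10 °C library (blue). Nmrk2, Chac1 and Dbp lie below all controls, Dnajb1 above them, and the contractile genes Myh4 and Atp2a1 overlap.

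Few genes of fuel use were called. Pdk4, the kinase that shuts glucose carbon out of the mitochondria, was at 557, 643 and 747 CPM at 22 °C and at 515, 248 and 223 CPM at 10 °C, a log2 fold change of -0.98 ± 0.32 that was not called without the 10 °C library 2. Uncoupling protein 3 (Ucp3), a mitochondrial carrier of muscle that goes with fatty acid use, was at 159, 126 and 169 CPM and at 124, 95.6 and 70.5 CPM. Its log2 fold change of -0.65 ± 0.21 was not called with library size only, with TMM factors from muscle genes, or without library 3 of either group. It was the only one of 27 fatty acid oxidation genes called under TMM, and the median of that list was 0.10. Of 77 respiratory chain genes 1 was higher, Cox6a1, the non-muscle isoform of a cytochrome oxidase subunit, at 0.95 ± 0.30, and the median was -0.11 under TMM and 0.14 with library size only. The coactivator PGC-1α (Ppargc1a) was at 24.9, 35.4 and 31.4 CPM and at 35.2, 33.9 and 38.3 CPM, and none of the 13 mitochondrial regulators was called. Of 19 genes of glucose uptake and glycolysis only Pdk4 was called, with a median of -0.32 under TMM and of -0.07 without the 22 °C library 1, and the glucose transporter GLUT4 (Slc2a4) was at 588 to 773 CPM and at 571 to 613 CPM. In the creatine list 1 of 6 genes was lower, Gamt, which makes creatine, at -0.65 ± 0.18, a call that held under 10 of 17 settings. The creatine list summed to 26332 to 42866 CPM at 22 °C and to 18925 to 24878 CPM at 10 °C, without overlap (exact permutation test, two-sided, p = 0.1), while its median was -0.13 under TMM and 0.10 with library size only.

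Clock genes differed between the groups. Dbp, an output factor of the circadian clock, was at 32, 71.3 and 81.3 CPM at 22 °C and at 13.8, 18.9 and 16.1 CPM at 10 °C, with all cold libraries below all controls. Its log2 fold change was -1.92 ± 0.33 and it was called under all 17 settings. The repressor REV-ERBα (Nr1d1) was at 371, 282 and 270.2 CPM and at 151, 171 and 156 CPM, and its call was lost only with the controls of the 34 °C experiment. Ciart, listed as Gm129, had -2.10 ± 0.45. The activator Npas2 rose by 1.12 ± 0.37, while the core activator BMAL1 (Arntl) had a difference of 0.44 ± 0.19 that did not pass. In all, 3 of 18 clock genes were lower and 1 was higher under TMM, and DESeq2 called 5 lower and 1 higher. The count depends on the controls: 7 were lower and 3 higher without the 22 °C library 1, 8 and 2 with all 6 controls, and 10 and 4 with the controls of the 34 °C experiment. Over all genes these settings had 63 lower and 335 higher, 76 and 320, and 117 and 303. Without the 10 °C library 1 or 2 no clock gene was higher. Without the 10 °C library 3 there were 5 lower clock genes, beside 139 over all genes. Dbp was also called lower in both fat depots of the cold experiment, by 2.71 ± 0.48 in ingSAT and by 2.22 ± 0.36 in iBAT on the log2 scale. The hour at which tissues were taken is not given in the sources used here, and its part was not tested.

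Several chaperones were higher. Dnajb1, a co-chaperone of HSP70, was at 5.78, 5.13 and 6.37 CPM at 22 °C and at 21.6, 24 and 10.7 CPM at 10 °C, without overlap and with a log2 fold change of 1.70 ± 0.29. Hsp90aa1, the inducible HSP90, rose by 0.90 ± 0.17 and Dnaja1 by 0.79 ± 0.13. The inducible HSP70 genes Hspa1a and Hspa1b were called at 1.40 ± 0.52 and 1.93 ± 0.68, but they are near-identical copies that share reads, and their groups overlap. Both calls were lost without the 22 °C library 2 or 3 or the 10 °C library 1, which left 3 called members. The other 12 of 17 genes of this list did not pass, among them the constitutive HSP70 gene Hspa8 at 0.01 ± 0.22 and the cold-inducible RNA binding proteins Rbm3 at 0.29 ± 0.15 and Cirbp at -0.18 ± 0.16.

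Wasting, growth and secretion genes gave few calls. The muscle ubiquitin ligases Fbxo32 and Trim63 were at 314 to 525 and 214 to 276 CPM at 22 °C and at 351 to 388 and 216 to 232 CPM at 10 °C, with overlapping groups. None of 18 atrophy and glucocorticoid genes was called by edgeR's quasi-likelihood test, and 1 of them, the glucocorticoid receptor Nr3c1, had an unadjusted p under 0.05 with a log2 difference of 0.33 ± 0.13. Of 12 secreted factors tested only Nrg4, which adipocytes also make and which is in the fat class, was higher, at 1.68 ± 0.49. Fgf21 had at most 2 counts in every library.

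Other cell types were followed through their markers. Of 10 macrophage genes tested 1 was higher, the mannose receptor Mrc1 at 0.63 ± 0.27, a call that held under 7 of 17 settings. All 10 had a positive log2 difference, with a median of 0.51 under TMM and of -0.51 with adipocyte markers as a covariate, and 5 were called without the 10 °C library 3 and none without any 1 of the 22 °C libraries 2 and 3 or the 10 °C libraries 1 and 2. The list summed to 151 to 288 CPM at 22 °C and to 157 to 460 CPM at 10 °C. The neutrophil genes S100a9 and Ngp were at 13.2 and 9.17 CPM in the 10 °C library 2 and under 1 CPM in every other library, and none of the 4 tested neutrophil genes was called, although 3 were without the 10 °C library 1 and 4 without the 10 °C library 3. No gene of the fibroblast and matrix list (14 tested), the tendon list (7), the nerve list (7), the MHC class II list (6) or the red cell list (2) was called by edgeR's quasi-likelihood test, and only the matrix proteoglycan Lum had an unadjusted p under 0.05. Without the 10 °C library 3, 4 fibroblast and matrix genes were higher and 2 nerve genes lower. In that setting 846 of all 11880 genes tested were higher and 139 lower, against 366 and 88 of 11841 in the main test. The macrophage and neutrophil counts without that library stand beside the same numbers. In the endothelial list 1 of 12 was lower, the junction protein Cldn5 at -0.70 ± 0.13, a call lost with library size only, with TMM factors from muscle genes, with all 6 controls and with the controls of the 34 °C experiment. No B cell or T cell marker was high enough to test.

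Mice kept at 34 °C give the same genes in the other direction of temperature, against their own 22 °C controls. There 34 genes were higher (0.289%) and 108 lower (0.919%). Fasn was at 397, 287 and 226 CPM in those controls and at 29, 25.5 and 130.5 CPM at 34 °C, a log2 fold change of -2.30 ± 0.60. Scd1 had -2.80 ± 0.70, Elovl6 -2.05 ± 0.53, Cidea -2.79 ± 0.74 and Acly -1.16 ± 0.20, and 10 of the 22 fatty acid synthesis genes were lower and none higher. General adipocyte genes moved with them: 4 of 20 were lower, with a median of -0.48, among them Plin1 at -1.25 ± 0.38, and the part of this in the other values was not tested. Control 1 was the highest of these controls in Ucp1, Cidea and Plin1. Without it, a setting chosen after seeing the data, 7 of 22 fatty acid synthesis genes and 1 of 20 adipocyte genes were lower, Fasn had -2.06 ± 0.66 and Cidea -1.53 ± 0.45. Ucp1 was at 6.91, 0.0726 and 1.19 CPM in these controls and had no count in the 34 °C libraries, where 3 counts would be 0.0691, 0.073 and 0.0694 CPM. Nmrk2 did not pass there, at 229, 281 and 381 CPM and at 360, 232 and 128 CPM, and neither did Dbp, at -0.00 ± 0.22. No adjusted p in the 34 °C comparison was under 0.05 for the genes given here.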

How the data were processed

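Quadriceps of mice at 10 °C and 22 °C was read by bulk RNA sequencing. The authors deposited raw counts per gene, whole numbers without scaling; per the labels STAR 2.5.3a, Picard 1.141, HTSeq 0.6p1 and build mm10 were used, with other versions in the methods of the paper. The labels name the stranded TruSeq mRNA kit, while the methods leave the cold quadriceps out of the tissues prepared with it, and the strand setting of the counting is not given in the sources used here. The labels put all 6 room temperature quadriceps libraries in one group and name 34 °C as treatment of every sample, so temperatures follow the titles. The controls are the columns that carry the prefix of the cold columns, and the authors' deposited means match these for 1999 of 1999 genes compared and the other controls for 5. Each library is a pool of 2 mice, so p values measure the spread between pools.

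The quasi-likelihood F-test of edgeR 4.0.16 (R 4.3.3, TMM factors, two-sided, Benjamini-Hochberg) was fitted to the 11841 genes whose average log2 CPM exceeded 0. Called genes had a fold above 1.5 and an unadjusted p no higher than 0.05. The test gives no SE of its own. The SE beside a log2 fold change is its absolute value divided by the square root of F, and is approximate where counts are few. Classes used a prior of 0.1 CPM. Summed levels and ratios were compared with exact permutation tests. ingSAT and iBAT counts of the cold experiment, in another table, were joined by symbol. Of 21647 identifiers 19169 matched directly and 1026 through an older symbol. The fits were checked on simulated data. Reads carry no molecular barcodes, so counting error leaves out PCR copies. The alternatives are edgeR's exact test, DESeq2 1.42.0, library size, 2 other filters, other controls, left-out libraries, a replicate block, adipocyte markers as a covariate and TMM from muscle genes; the joint removal of 2 libraries, the non-overlap count, the removal of genes of 1 library and the removal of control 1 at 34 °C were added after seeing the data. Members and gene lists were chosen with earlier results of these data known. Named genes are those with an adjusted p under 0.05, the 10 largest rises and falls without overlap overall and in the muscle class, a list of key genes, and called members of the lists described, at most 6 per list. Columns of the authors' own comparisons were not used.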

Additional observations from a re-analysis of the deposited data

Results flagged for a closer look

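Over the 6 room temperature quadriceps libraries, scaled together with the 34 °C libraries, 12 of 75 genes and summed lists had 1 library far from the other 5 (Dixon's 95% value for 6 samples). Chance gives about 1 in 20 such results only for independent, normally distributed values. These items are not independent: Ucp1 and Pdk4 are also members of summed lists, and several results share 1 library. The 12 of 75 can therefore not be judged against that share. In control 1 of the 34 °C experiment Ucp1 was at 6.91 CPM, against 0.0473 to 1.19 CPM in the others, Cidea at 15.3 CPM against 1.58 to 4.44 CPM, and Plin1 at 33.5 CPM against 11.1 to 18 CPM. The summed brown adipocyte list was at 90.3 CPM there, against 49.1 to 60.5 CPM. This library is a control in the comparison at 34 °C and in the settings that exchange or pool controls, and it is 1 of the 3 quadriceps libraries behind the fat and muscle classes.

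The 22 °C library 1 of the cold experiment was the far library in 6 results. Myh1, a fast myosin, was at 13048 CPM against 5145 to 7970.0 CPM, and the coactivator gene Ppargc1a at 24.7 CPM against 31.7 to 35.8 CPM. The summed lists of glucose uptake and glycolysis (88417 CPM against 52496 to 59766 CPM), the respiratory chain (31587 CPM against 25494 to 26765 CPM), the creatine cycle (42660.0 CPM against 25487 to 28812 CPM) and heat shock genes (5274 CPM against 2593 to 3501 CPM) were all highest there. In the controls of the 34 °C experiment Pdk4 was at 1286 CPM in library 3, against 555 to 756 CPM, and the immediate early genes summed to 669 CPM in library 2, against 342 to 444 CPM.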

How the results depend on the processing

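The called genes numbered 454 (176 fat class, 29 muscle class), and 3 with an adjusted p under 0.05 (3 and 0). Library size only gave 934 and TMM from muscle genes 913, with 95.6% and 95% of calls higher against 80.6%, and the muscle class turned to 17 higher and 5 lower (22 calls) and to 17 higher and 9 lower (26 calls). The cause was not tested. The lowest filter, which tests more genes, gave 822. With adipocyte markers as a covariate 307 genes were called, 132 higher and 175 lower, and 72 in the fat class, 62 of them higher; there Acvr1c went to -0.44, Adig to -0.035, Adipoq to -0.20, Lipe to -0.11 and Mrc1 to -0.10; Adipoq is itself part of that covariate. Leaving out 1 library gave 311 to 985 calls, 124 to 264 in the fat class and 21 to 65 in the muscle class. The upper ends, 985 and 65, came without the 10 °C library 3. In alternatives added after seeing the data, without 22 °C library 1 and 10 °C library 1 there were 264 calls, with 106 in the fat class. The controls of the 34 °C experiment gave 420, of which 175 were among the 454, 72.1% higher, with 53 in the muscle class, and ingSAT as class reference gave 17 in the muscle class.

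No pairing of the libraries beyond a shared number is given in the sources used here. Deviations of equal numbers correlated at 0.0285, 0.0468 and 0.261, the last the highest of all pairs. The 22 °C library 1 correlated best with 10 °C library 2 (0.152), while 22 °C libraries 2 and 3 correlated best with their own number. Whether the libraries are paired was not tested. A replicate block gave 570 calls, 198 in the fat class and 38 in the muscle class, 197 of the 570 with an adjusted p under 0.05. The exact test gave 506, DESeq2 471, filterByExpr 580 and all 6 controls 396. Without the 51 genes held by 1 library there were 412, 351 higher and 61 lower. The ratios to adipocyte markers kept their sign with Adipoq or Plin1 alone: Ucp1 8.45 and 8.13, Fasn 2.22 and 1.90, Elovl6 3.45 and 3.13.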

Other observations

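Epididymal transcripts were seen in brown fat as well as in muscle. Adam7, an epididymal surface protein, was at 35.7 CPM in the 10 °C quadriceps library 1 and at 0 in the other quadriceps libraries, and it was at 1.19, 0.954 and 11.8 CPM in the 3 iBAT libraries at 10 °C and at 0 in those at 22 °C. Crisp1, a sperm-coating protein, was at 124 CPM in that quadriceps library and at 0.695, 1.09 and 7.59 CPM in the iBAT libraries at 10 °C. These genes were chosen after their values were seen.

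Some called genes were in neither the fat nor the muscle class. Nnat (neuronatin), an imprinted gene, was at 1.36, 6.58 and 5.46 CPM at 22 °C and at 0.735, 0.922 and 0.213 CPM at 10 °C. Its log2 fold change was -2.84 ± 0.68 (SE, n = 3 per group), and it was called under all 17 alternative settings. It was also called lower in ingSAT at 10 °C, at -3.37, and in iBAT, at -2.19. Chosen after their values were seen, 2 genes also known from immune cells were high in 1 or 2 cold libraries. Cd52, named as a lymphocyte antigen, was at 40.7 CPM in the 10 °C library 1 and at 0.744 to 3.10 CPM in the other 5 libraries. That library is the one that holds the epididymal genes Crisp1 and Adam7, and the cell source of Cd52 was not tested. Ltf (lactoferrin) was at 7.19 and 6.26 CPM in the 10 °C libraries 1 and 2 and at 0.154 CPM or less in the others. Of 13 immediate early genes tested, Atf3 and Fosl2 were higher, at 0.97 ± 0.30 and 0.64 ± 0.18, and Arc was lower, at -0.84 ± 0.31. Of the 17 alternative settings Atf3 was called in 16, Fosl2 in 12 and Arc in 10. None of 15 interferon-stimulated genes and none of 15 myogenic and denervation genes was called by edgeR's quasi-likelihood test, and 0 of these genes had an unadjusted p under 0.05. Without the 10 °C library 3, 1 interferon-stimulated gene was higher and 2 myogenic and denervation genes were lower. Over all genes 846 were higher and 139 lower without that library. DESeq2 called 0 interferon-stimulated genes and 1 myogenic and denervation gene, which was higher.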
